A study of Mus musculus with 2 samples.

Results

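Galectins and the CD47-SIRPa pair are surface signals that tell immune cells to stop, to die or to leave a neighbour alone, and they were read here in 7 genes on 1 array of mouse marrow cells exposed to a tumour line. The genes were Lgals1, Lgals3, Lgals8 and Lgals9, which encode galectins 1, 3, 8 and 9, Havcr2, which encodes the galectin 9 receptor TIM-3, and Cd47 and Sirpa. They were taken by name: a probe set counted only if the platform annotation gave it a single gene symbol and that symbol was one of the 7. This gave 15 probe sets of 34945 with a single symbol, and 7 genes of 18193.

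The cells came from femurs of C57BL/6 mice (no age or sex is given in the labels) and were grown in RPMI-1640 with 5% serum. In the array read here, labelled ID8-induced MDSC, they sat below ID8 tumour cells, a mouse ovarian epithelial line that the labels also spell 1D8, in a transwell plate for 4 days. The titles speak of tumour supernatant, and the labels give the product as CD11b+Gr1+ cells, the surface phenotype of MDSC (myeloid-derived suppressor cells), which are immature and hold T cells in check. A second array held marrow cells called BMCs control, with no tumour cells named, the same phenotype and no stated time in culture. There was 1 array per group, with nothing to say how many animals were pooled, so the values carry no replicate error, and the number of arrays limits their precision. The control signals stood in falling order along the probe set list, in 2 interleaved sequences with 0 rises within each, so they cannot be assigned to genes. No fold change is given, and nothing below shows that ID8 cells raised or lowered a gene.

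Galectins are small lectins that bind galactose-bearing glycans on cell surfaces. They are made in the cytosol, leave the cell without a signal peptide and crosslink glycoproteins of T cells and phagocytes, which can dampen or kill the T cell. CD47 is a widely expressed membrane protein that binds SIRPa on macrophages, neutrophils and dendritic cells. The cytoplasmic tail of SIRPa then recruits the phosphatases SHP-1 and SHP-2, and phagocytosis of the CD47-bearing cell is restrained.

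Galectin 3 gave the strongest signal of the 7 genes, CD47 came next by the brightest of its 5 probe sets but not by their geometric mean, and TIM-3 gave a signal close to the bottom of the array. Values are MAS5 signals, linear intensities with 1 value per probe set. A percentile gives how many percent of the 45037 probe sets were dimmer. It places a probe set on the array and does not rank transcripts, because probe sets differ in how well they hybridise. The floor used here is the 40th percentile of the array, a signal of 68.77, since no detection calls were given. Of the 15 probe sets 14 lay at or above it, against 63.5% of all probe sets with a single symbol. Of the 7 genes 6 lay at or above it by their brightest probe set, against 71.3% of all genes. The count was again 6 of 7 by the geometric mean of a gene's probe sets (62.4% of all genes) and by the dimmest probe set (49.7% of all genes). At or above the 90th percentile stood 5 of the 7 genes (14.8% of all genes), and at or above the 99th stood 2 of the 7, Lgals3 and Cd47 (1.39% of all genes). Cd47 is among them by its brightest probe set alone: the geometric mean of its readings stood at percentile 92.1 and its next probe set at 98.1, which leaves 1 of the 7. The genes had been picked with earlier results of this array known, so these shares are descriptions.

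**Figure D1:**
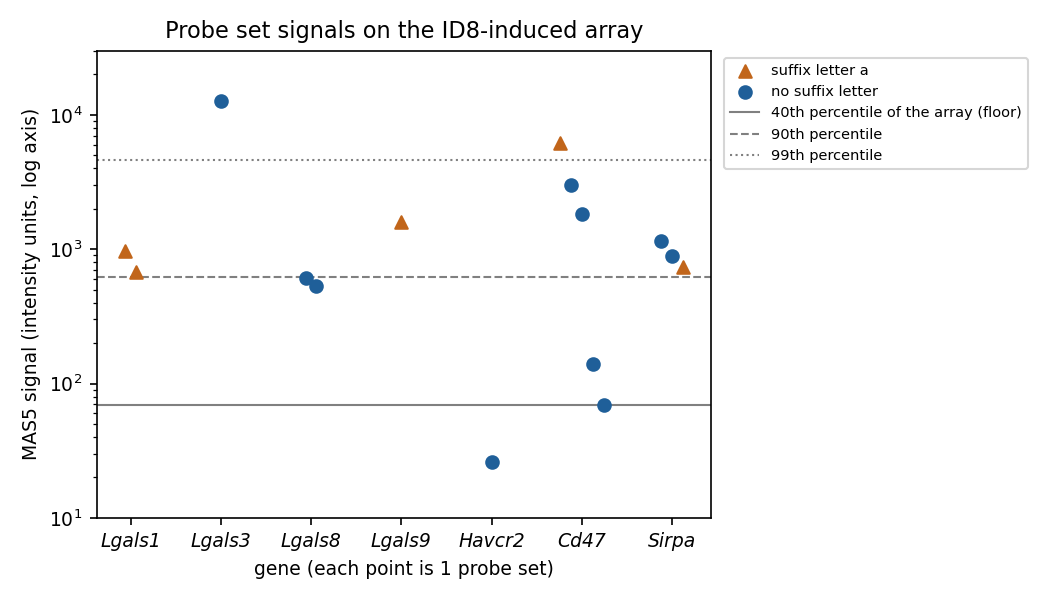
MAS5 signal (log axis) of each of the 15 probe sets on the ID8-induced array, by gene; triangles are probe sets whose ID carries the suffix letter a, circles those without a suffix letter, and lines mark the 40th, 90th and 99th percentiles of the array. Lgals3 stands at 12722, Havcr2 at 26.14 is the only point below the floor, and the 5 Cd47 points run from 69.55 to 6207.

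Lgals3 was read by 1 probe set, at 12722, the 99.9th percentile of the array. Only 43 probe sets of the whole array were brighter. Galectin 3 is the chimera-type galectin, with a single carbohydrate-binding domain and a long N-terminal tail through which it forms oligomers, and as Mac-2 it is a classical antigen of macrophages. Among the 9183 genes that, like Lgals3, had a single probe set, 99.9% had a lower signal. With 1 probe set there is no second reading of this transcript on the array.

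Lgals9 was also read by 1 probe set, at 1606, or percentile 96.1. Galectin 9 carries a pair of carbohydrate-binding domains joined by a linker and is known as a ligand of TIM-3, through which it can kill activated T helper cells. Its signal was 23.4 times the floor. Among genes with a single probe set 96.3% were dimmer.

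Lgals1 was read by 2 probe sets, at 974 and 675, the 93.5th and 90.7th percentiles. Galectin 1 is a one-domain galectin that acts as a dimer and can trigger death of activated T cells. Its probe sets differed 1.44-fold, and 72.5% of the 4695 genes with 2 probe sets differed by as much or more. Both IDs of Lgals1 and the single ID of Lgals9 carry the letter a, which in Affymetrix naming marks probes that match several transcripts of one gene.

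Lgals8 was read by 2 probe sets, at 611 and 533, the 89.8th and 88.5th percentiles. Galectin 8, another galectin with a pair of binding domains, is known in human cells for marking damaged endosomes and lysosomes. The signals differed 1.15-fold, and 89.4% of genes with 2 probe sets differed by as much or more. Lgals8 thus stood just under the 90th percentile (a signal of 619.8) by both readings, while Lgals1 stood just above it by both.

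Havcr2 was read by 1 probe set, at 26.14, the 10.7th percentile and 0.380 times the floor. TIM-3 sits on exhausted T cells, dendritic cells and some other myeloid cells. Among genes with a single probe set 57.7% lay at or above the floor and 10.7% were dimmer than Havcr2. The reading says that this probe set gave little signal. It does not show that the transcript was absent, since a probe set that hybridises poorly would also read low.

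Cd47 was read by 5 probe sets that fell into separate ranges. The first 3 read 6207, 2983 and 1834, from the 99.4th to the 96.6th percentile. The other 2 read 139 and 69.55, the 64.4th and 40.4th percentiles, the last just above the floor. The brightest and dimmest differed 89.2-fold, and 3.02% of the 463 genes with 5 probe sets differed by as much or more (their median ratio was 7.45). The lowest of the upper 3 readings was 13.2 times the higher of the other 2, whereas the upper 3 readings lay within 3.38-fold of each other. Both of the brightest probe sets have a RefSeq mRNA of Cd47 as their representative sequence in the annotation, and the 3 others have other GenBank records. Among genes with 5 probe sets, 96.3% lay at or above the floor by their brightest one, so passing it says little for Cd47, while 98.7% had a dimmer brightest probe set.

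Sirpa was read by 3 probe sets, at 1147, 886 and 731, the 94.4th, 92.8th and 91.4th percentiles. The 3 readings lay within 1.57-fold of each other, and 90.2% of the 2366 genes with 3 probe sets differed by as much or more. All of them stood above the 90th percentile of the array. SIRPa is an inhibitory receptor of the immunoglobulin superfamily, abundant on myeloid cells and neurons. Close paralogs exist in the mouse, and whether their transcripts add to the Sirpa readings was not tested.

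**Figure D2:**
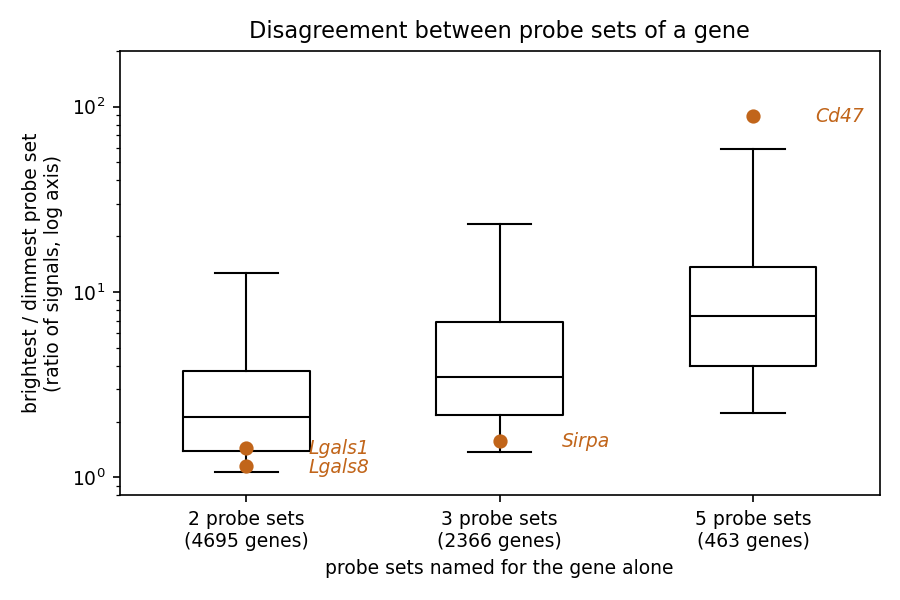
Ratio of the brightest to the dimmest probe set of a gene (log axis) for all genes with 2, 3 or 5 probe sets; boxes span the quartiles with the median as a line, whiskers the 5th to 95th percentile of genes, and orange points are Lgals1 (1.44), Lgals8 (1.15), Sirpa (1.57) and Cd47 (89.2). Lgals8 and Sirpa lie below their boxes, Lgals1 near the lower edge of its box, and Cd47 above its whisker.

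The order of the brightest readings was Lgals3, Cd47, Lgals9, Sirpa, Lgals1, Lgals8 and Havcr2. With no replicate, neighbours in this order cannot be told apart by an error. For Cd47 the place depends on the probe set: the geometric mean of its 5 readings was 801, which by the same measure falls above the 570.2 of Lgals8, just under the 811 of Lgals1 and the 906 of Sirpa, and below the 1606 of Lgals9. Cd47 then comes after Lgals3, Lgals9, Sirpa and Lgals1. The array held no series of conditions, so no other gene could be named for a like pattern.

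Promoter sequence was at hand for 5 of the 7 genes, Lgals3, Lgals8, Lgals9, Havcr2 and Cd47, from RefSeq on GRCm38.p6. The 250 bases before the annotated start are printed for the gene with the strongest signal, for Cd47, and for the gene below the floor, so that the contrast in base composition between these 3 can be seen. Cd47 has 2 annotated starts, and the first is printed. They are written 5′ to 3′ on the strand of the gene, and capitals mark matches on either strand to any of 7 motifs. The motifs were picked with these sequences in view: the GC box GGGCGG, the NRF1 motif CGCNTGCG, the TATA box TATAAA, the CCAAT box CCAAT, the PU.1 motif GAGGAAGT, the AP-1 motif TGANTCA and the E-box CACGTG. The windows are chr14:47373610-47373859 on the plus strand for Lgals3, chr16:49855404-49855653 on the plus strand for Cd47 and chr11:46454681-46454930 on the plus strand for Havcr2.
Lgals3: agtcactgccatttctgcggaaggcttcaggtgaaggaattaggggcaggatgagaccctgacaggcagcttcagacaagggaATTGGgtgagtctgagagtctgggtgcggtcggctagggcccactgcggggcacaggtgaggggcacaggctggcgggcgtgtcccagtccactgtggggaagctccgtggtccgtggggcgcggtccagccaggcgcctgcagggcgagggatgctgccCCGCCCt
Cd47: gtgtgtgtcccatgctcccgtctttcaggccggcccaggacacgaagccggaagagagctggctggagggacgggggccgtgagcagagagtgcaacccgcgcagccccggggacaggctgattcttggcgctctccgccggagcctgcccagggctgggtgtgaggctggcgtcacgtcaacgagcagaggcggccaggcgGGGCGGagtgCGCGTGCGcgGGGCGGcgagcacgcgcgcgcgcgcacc
Havcr2: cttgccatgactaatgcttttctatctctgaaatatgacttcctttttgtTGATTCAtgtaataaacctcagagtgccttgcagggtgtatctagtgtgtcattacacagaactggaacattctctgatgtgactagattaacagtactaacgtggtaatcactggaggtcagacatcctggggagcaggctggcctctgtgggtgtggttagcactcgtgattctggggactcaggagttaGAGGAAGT
The Cd47 window held 30 CpG dinucleotides and 73.2% G+C, and 94.1% of 32851 RefSeq windows of the same length had fewer CpG. The Lgals3 window held 13 CpG and 66% G+C, and 68.5% of windows had fewer. Havcr2 held 2 CpG and 44.8% G+C, and Lgals9 and Lgals8 held 3 and 4 CpG, against a median of 6 over all windows. In Cd47 a GC box lay on each side of an NRF1 motif, which began 38 bases before the start. For the second annotated Cd47 start the NRF1 motif began 45 bases before it, and that window held 31 CpG and 74.4% G+C. The GC box occurs in 32.7% of all windows and the NRF1 motif in 6.76%. Lgals3 had a GC box that began 7 bases before the start and a CCAAT box at 167 bases (33.8% of windows). Havcr2 had a PU.1 motif (2.44% of windows) over the last 8 bases before the start and an AP-1 motif (6.75%) that began 200 bases before it. Lgals8 had a pair of CCAAT boxes and Lgals9 none of the 7 motifs. No TATA box (12.4% of windows) or E-box (6.02%) was found in the 5 promoters, and no matches overlapped. A match describes the letters only, and this array measured neither binding nor promoter activity.

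A list of other galectins, which also holds the galectin 3 binding protein gene Lgals3bp and the galectin-related gene Lgalsl, was placed much like genes in general. Of its 6 measured genes 5 lay above the floor (71.3% of all genes) and 0 reached the 90th percentile (14.8% of all genes), with a median percentile of 59.4 (61.4 over all genes). Lgals3bp, a secreted glycoprotein that binds galectin 3, read 201. Lgals12, a galectin known from fat cells, read 165 and 27.29 on its 2 probe sets. Lgals4, a galectin of gut epithelium, read 125. Lgals2 read 103 and 63.77, and Lgalsl, a galectin-related protein, lay below the floor at 65.3 and 18.79. With the floor at the 60th percentile the count was 3 of 6, and the share of all genes at that floor was not computed.

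A list of galectin partners, mostly surface or lysosomal glycoproteins, passed the floor in 11 of 12 cases (71.3% of all genes), with 7 genes from the 90th percentile up (14.8%) and 3 from the 99th (1.39%). Ptprc (CD45, the leukocyte phosphatase bound by galectin 1) read 8148 and 546. Lamp1, a heavily glycosylated lysosomal membrane protein, read 7260. Cd44, the hyaluronan receptor, ran from 73.11 to 5571 over 4 probe sets, a spread of 76.2-fold. The weakest were Calcoco2, the autophagy receptor that human galectin 8 recruits, at 82.97 and Nrp1, a galectin 1 partner on endothelium, at 57.9. The list's median percentile was 93.4 by the brightest probe set and 77.4 by the geometric mean, against 61.4 and 51.6 over all genes.

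A list of glycan enzymes held ones that build the N-glycan branches and galactose chains recognised by galectins, and ones that modify or halt them. All 11 measured genes lay above the floor (71.3% of all genes). Of these, 2 reached the 90th percentile, a share near the 14.8% of all genes. The counts are thus not counts of ligand makers alone. B3gnt2, which extends poly-N-acetyllactosamine, read 831 and 489. B4galt1, a galactosyltransferase, read 747, and Mgat4a, a branching enzyme, read 371 and 152. The weakest were Gcnt1, the core O-glycan branching enzyme, at 108 and 71.67, and Mgat3, which adds the bisecting residue that halts branching, with 100.02 as the strongest of 3 readings. The dimmest Mgat3 reading, 43.18, lay below the floor, and the list's median percentile was 73.5 (61.4 over all genes).

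The TIM family and other TIM-3 partners gave readings on both sides of the floor, 3 of 5 genes above it and 0 at the 90th percentile, against 71.3% and 14.8% of all genes. Bag6, a chaperone known to bind the tail of TIM-3, read 604. Ceacam1, a proposed partner of TIM-3, ran from 62.76 to 430 over 8 probe sets, and 599 and 888 on those it shares with Ceacam2. Timd2 read 103 and 52.94. Havcr1 (TIM-1) read 37.71 and 15.78 and Timd4 (TIM-4, a phosphatidylserine receptor) read 31.92, all below the floor like Havcr2. Hmgb1, a nuclear protein that TIM-3 can bind outside the cell, shares all its probe sets with other symbols, and these read 724 to 3084. These and the shared Ceacam1 probe set at 888 lay above the 90th percentile (a signal of 619.8). Shared probe sets do not enter the count of 0 given for this list.

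Genes of SIRPa signalling, adaptors, phosphatases and kinases on either side of the receptor, lay above the floor for 7 of 7 measured genes (71.3% of all genes), with 6 at or above the 90th percentile (14.8% of all genes). Ptpn6 (SHP-1) read 2789 and 2655, which agree within 1.05-fold. Ptpn11 (SHP-2) ran from 62.39 to 773 over 3 probe sets, so 1 of its readings lay below the floor. Fyb, an adaptor of haematopoietic cells, read 5120 and 1030, and Grb2 read 1933 and 708. Src, a tyrosine kinase of the family that phosphorylates the SIRPa tail, was the weakest at 111 and 31.97. The median percentile of this list was 96.5 by the brightest probe set and 91.7 by the geometric mean, against 61.4 and 51.6 over all genes.

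The SIRPa paralog Sirpb1a lay below the floor at 52.53. A probe set shared by Sirpb1a, Sirpb1b and Sirpb1c read 120, the 59.9th percentile.

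Other genes around CD47 were unevenly placed. Thbs1 (thrombospondin 1, a secreted ligand of CD47) read 5096 and 2026, and 5759 on a probe set it shares with Pald1. Itgav, an integrin chain, ran from 44.13 to 1642 over 5 probe sets. Itgb3, its partner chain, read 203 and 109. Qpctl, the enzyme that modifies the CD47 N-terminus and thereby favours SIRPa binding, read 75.64 to 112 over 3 probe sets. Its secreted relative Qpct lay below the floor at 37.26. Of 6 genes 5 passed the floor (71.3% of all genes), 2 reached the 90th percentile (14.8%) and the median percentile was 69.8 (61.4 over all genes).

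Signals and receptors that promote uptake and so oppose CD47 included some of the brightest probe sets. Fcgr3, an activating receptor for antibody, read 8497, Itgb2, the beta chain of CD11b/CD18, 6880, and Calr (calreticulin, an uptake signal when exposed on the surface) 713 to 926 over 3 probe sets. The receptor kinase Axl read 96.57 and 48.01 and Mertk 48.62. Of 8 genes 7 lay above the floor (71.3% of all genes), 3 at or above the 90th percentile (14.8%) and 2 at or above the 99th (1.39%). Their median percentile was 79 (61.4 over all genes).

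**Figure D3:**
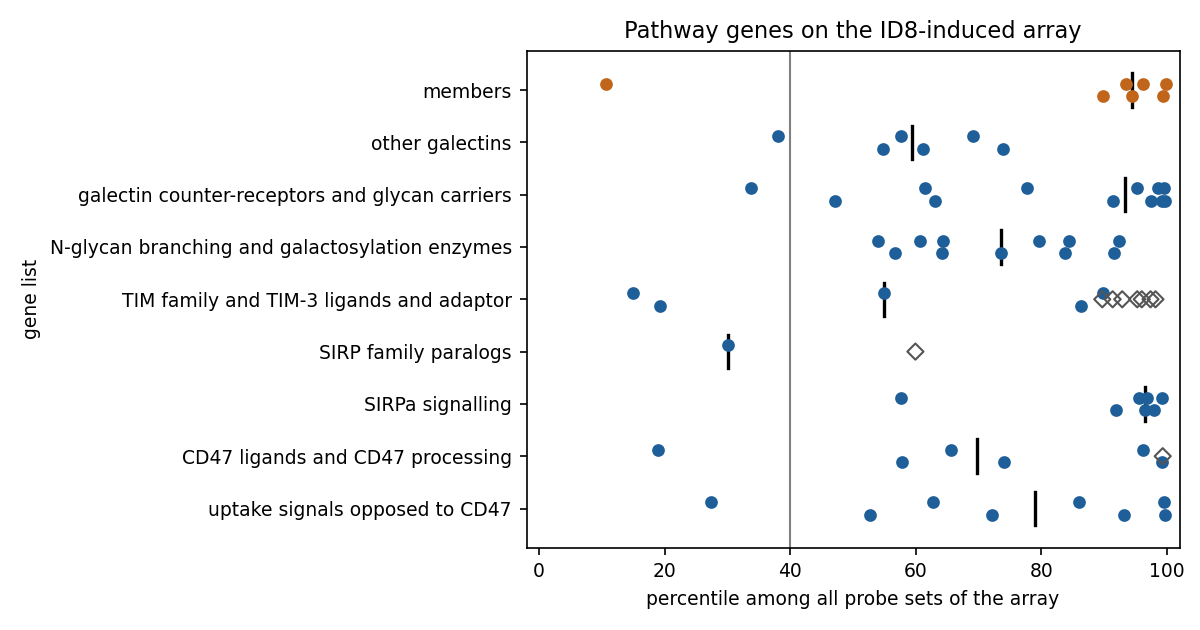
Percentile of each gene's brightest probe set among all probe sets of the ID8-induced array, for the 7 genes (orange) and the 8 lists around them (blue); black bars are list medians over genes, open diamonds are probe sets shared with another symbol and not counted, and the grey line is the floor. The SIRPa signalling list has its median at 96.5, the other galectins at 59.4, and Havcr2 is the only orange point left of the line.

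Markers of the cell types that the sample could hold were read beside these values. Since 71.3% of all genes passed the floor and 14.8% reached the 90th percentile, a marker list with shares near these does not show that its cell type was present. Of the neutrophil and MDSC list 8 of 8 measured genes were at or above the 90th percentile, with S100a9 at 24857, Lcn2 at 21448 and S100a8 at 20545, and Itgam, which encodes CD11b, at 2375. Ly6g was not analysed here, and a probe set shared by the Gr1-family genes Ly6c1 and Ly6c2 read 3070. Monocyte and macrophage markers passed the floor in 6 of 9 cases, near the share of all genes (71.3%). Of them 4 reached the 90th percentile, led by Cd14 at 10143, Csf1r at 4403 (1126 on the dimmest of its 3 probe sets) and Cd68 at 3597. The 2 weakest, C1qa and Cd163, lay below the floor at 35.04 and 17.09. Lgals3 and Sirpa are expressed by both of these lineages, and the array cannot say which cells carried them; in a bulk sample fewer cells and less RNA per cell cannot be told apart either.

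Red cells and their precursors carry much CD47, and erythroid markers were mixed. Of 4 measured markers 1 passed the floor (71.3% of all genes), Alas2 (the erythroid haem synthesis enzyme) at 1693, while Klf1 and Car1 read 55.94 and 31.2. The probe set named for Hba-a1 alone read 51.32, but 3 probe sets shared by the alpha globin genes Hba-a1 and Hba-a2 read 10602, 18708 and 23129. The part of erythroid RNA in the Cd47 signals was not tested.

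T and NK cell markers, cells on which TIM-3 is well known, passed the floor in 5 of 7 cases, the same share as all genes (71.3%), and 0 reached the 90th percentile. Cd4 read 277 and 66.01 and Cd3e 134.58, while Ncr1 and Cd3g were below the floor at 65.21 and 62.28. Dendritic cell markers passed in 5 of 6 cases, with H2-Ab1 at 1531 and Xcr1 below the floor at 32.24. B cell markers passed in 4 of 4 cases (71.3% of all genes), but in 2 of 4 by the geometric mean (62.4%). Of them 0 reached the 90th percentile (14.8%), and Cd79b was the strongest at 261. Epithelial markers, which ID8 cells could bring through the membrane, passed in 5 of 8 cases, near the 71.3% of all genes, and 0 reached the 90th percentile. Of these Epcam read 159 and 58.32, Krt8 ran from 46.62 to 107 over 3 probe sets, and Krt18 read 94.87. The weaker Epcam reading and the dimmest Krt8 one lay below the floor, as did Krt19 at 46.03 and Cdh1 at 21.57. Galectins 1 and 3 are also made by epithelial tumour cells. The part of ID8 RNA in their signals was not tested.

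**Figure D4:**
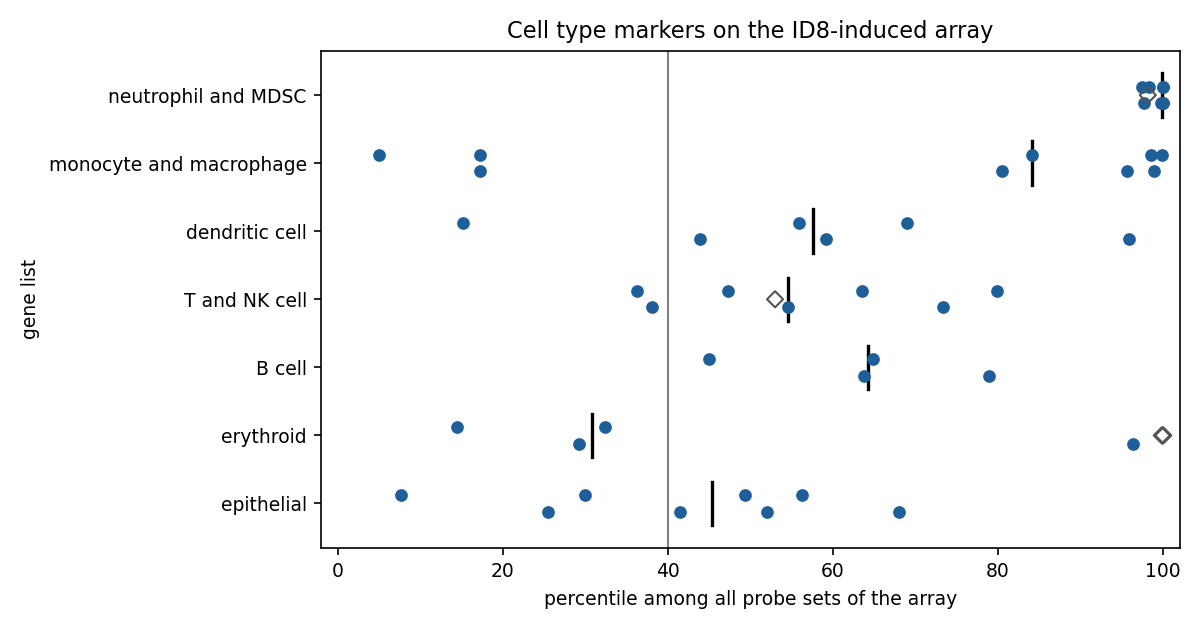
Percentile of the brightest probe set of each cell type marker among all probe sets of the ID8-induced array; black bars are list medians over genes, open diamonds are probe sets shared with another symbol, and the grey line is the floor. The 8 neutrophil and MDSC markers all lie right of the 90th percentile, whereas the epithelial median is 45.4 and the erythroid list has 1 marker and the 3 shared globin probe sets at the far right.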

How the data were processed

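Biotinylated cRNA from 6 ug of total RNA was hybridised to 1 Affymetrix array per group, per the labels' protocols. The deposited values are signal intensity per probe set on a linear scale, made by the authors with MAS5 per the submitters' processing notes; for its version, scaling target and detection calls the sources used here give nothing. The trimmed means of both columns were close (219.6 and 222.2). Scaling and probe design can both shift a signal, so probe sets were kept apart.

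Of 45037 probe sets 34945 carried 1 symbol in GEO's platform annotation, 932 several and 9160 none; only the first kind was used. In the control column 3103 of its steps from row to row were rises (22454 in the ID8-induced one), and its genes were not analysed here. No test was run. The 40th percentile served as floor, and geometric means took signals under 1 as 1. Named were all 7 genes and, in each list around them, the 3 strongest and 2 weakest by brightest probe set. For marker lists the text names only some of the genes that this rule picks, and Itgam for its known role. The genes, lists and motifs were chosen with earlier results of these data known. Alternatives were other floors, geometric means, dimmest probe sets and probe sets without a suffix letter. Scripts were tested on simulated data. Python 3.11.15, numpy 2.4.6, pandas 2.3.3, scipy 1.17.1 and matplotlib 3.10.9 were used.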

Additional observations from a re-analysis of the deposited data

Results flagged for a closer look

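The bone marrow control column was picked out because it holds signals that no value above uses. Its highest signal was 26083.9, at the top of the table, and its median was 92.31 against 89.52 on the ID8-induced array. Within its upper and lower sequence, split at its last value of 91.67, 0 and 0 steps were rises, against 10622 and 11804 in the ID8-induced column split in the same way. The cause of the order was not tested, and no control signal is assigned to a galectin, TIM-3, CD47 or SIRPa probe set.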

How the results depend on the processing

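A value counted as moved when it changed by over 1.5 times. With probe sets without a suffix letter, 9 of the remaining probe sets of the 7 genes lay above the floor in place of 14, because fewer probe sets were counted, and the strongest Cd47 reading was 2983. The Cd47 signal was 801 as a geometric mean and 69.55 on its dimmest probe set, and Sirpa was 731 on its dimmest. The other 18 alternatives for the counts and signals of the 7 genes and for all 8 lists together stayed within 1.5 times. Lgals1 and Lgals9 had no probe set without a suffix letter, so that alternative could not be read for them. The genes above the floor were 6 of 7 with floors at the 20th (38.75) and 60th (119.96) percentile. They were also 6 of 7 with the geometric mean (62.4% of all genes) and with the dimmest probe set (49.7% of all genes). The share of all genes at the 20th and 60th percentile floors was not computed, here or for the list counts below. Of the 56 measured genes of all 8 lists, 49 lay above the floor (71.3% of all genes) and 44 by the geometric mean (62.4% of all genes). With the floor at the 20th and 60th percentile the counts were 53 and 40. Of 24 list counts, 2 moved, the other galectins to 3 of 6 with the floor at the 60th percentile and Sirpb1a alone to 1 of 1 with it at the 20th. No paired analysis was possible because each group held 1 array. With 1 array, neither the spread between cultures nor the error of any signal is known, and a signal near the floor does not tell weak expression from none.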
